A study of Mus musculus with 5 samples.

Results

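The genes described here are 10 components of interleukin-6 family signalling through gp130. They are the cytokines Lif, Clcf1 and Cntf, the receptor chains Osmr, Il6st, Lifr, Il6ra and Cntfr, the transcription factor Stat3 and its feedback inhibitor Socs3. They were chosen by gene symbol, and all 10 were found among the 35976 genes of the counts table. Astrocytes had been collected from the amygdala with magnetic beads against ACSA-2, an astrocyte surface antigen encoded by Atp1b2, at the end of 18 days of restraint in tubes and a course of fear conditioning with extinction. The 3 DTx-labelled libraries (5A, 6A and 7A) were compared with saline replicates 1 and 2, and a further saline sample of the design is not analysed here. All mice of both groups carried Ccr2::CreERT2/+;DTR/+, which puts a tamoxifen-inducible Cre under the Ccr2 locus together with a diphtheria toxin receptor, and all received tamoxifen. The groups differed by label in the injection given during restraint, which was diphtheria toxin (DTx) or saline, and the design asked how removing CCR2-expressing monocytes bears on astrocytes after chronic stress.

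Cytokines of this family signal through receptor complexes that contain gp130, the product of Il6st. LIF pairs gp130 with LIFR, and CNTF and CLCF1 use the same pair together with CNTFR alpha. In mice oncostatin M acts mainly through gp130 with OSMR, and IL-6 first binds IL-6R alpha. Janus kinases bound to the receptors then phosphorylate STAT3, which enters the nucleus and induces target genes that include Socs3, whose protein binds gp130 and shuts the signal off. In astrocytes STAT3 is known as a driver of reactive gliosis and of Gfap, the glial intermediate filament.

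DNA before the RefSeq start sites of Socs3 and Stat3 is shown because both genes are known to respond to STAT3 and, unlike Stat3, Socs3 overlapped between the groups. The letters are RefSeq's on GRCm38.p6, from the minus strand and read 5′ to 3′, without bases annotated as exon. Capitals mark the palindromic STAT motif TTCNNNGAA, which reads the same on both strands. The Socs3 stretch, chr11:117969452-117969616, ends 86 bases before the RefSeq start site at 117969366. GENCODE M21 starts Socs3 further upstream, at 117970047, so in that gene model the stretch lies inside the gene, between annotated exons. The Stat3 stretch, chr11:100939541-100939790, ends at the base before the start site of Stat3.
Socs3: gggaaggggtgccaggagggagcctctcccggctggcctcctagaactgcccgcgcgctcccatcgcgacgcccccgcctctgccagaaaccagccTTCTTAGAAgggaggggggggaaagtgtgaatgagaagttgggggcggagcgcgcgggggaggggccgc
Stat3: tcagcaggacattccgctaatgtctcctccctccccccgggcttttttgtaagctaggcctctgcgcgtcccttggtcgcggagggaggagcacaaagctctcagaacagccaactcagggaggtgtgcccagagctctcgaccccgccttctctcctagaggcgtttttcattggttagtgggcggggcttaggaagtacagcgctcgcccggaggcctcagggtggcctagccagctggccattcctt
The Socs3 stretch holds 1 match, TTCTTAGAA, which lies 146 to 154 bases before the RefSeq start site, and the Stat3 stretch holds none of these letters. Of 15 promoter windows of 300 bases listed for 9 of the 10 genes (none for Clcf1), the 1 with the motif was that of Socs3. The motif is in 8.3% of all 32851 such windows, so the match is a description of the letters and not evidence of binding.

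Total counts ran from 15961220 to 18708138 in the DTx-labelled libraries and were 20577672 and 23720299 in the saline libraries. Ccr2, the gene whose locus carries the Cre, had 54, 4 and 4 counts in DTx-labelled 5A, 6A and 7A and 0 counts in both saline libraries. Against a floor of 3 counts over the saline group this is at least 17.3-fold higher with all 3 DTx-labelled libraries, and at least 3.49-fold higher, from 8 counts, when 5A was left out. Leaving out saline replicate 1 or 2 gave bounds of 8.77-fold and 8.52-fold. This direction is opposite to the depletion named by the label, so directions are given by the labels as they stand. The summed level of the Y-linked genes Ddx3y, Eif2s3y, Kdm5d and Uty was 185.4 to 201.2 counts-per-million (CPM) in the DTx-labelled libraries and 0.0897 to 0.185 CPM in saline. Xist, the RNA of the inactive X chromosome, had 3 counts in the DTx-labelled libraries and 6615 in saline. The treatment label and the state of the sex chromosomes therefore cannot be told apart. Astrocyte markers were abundant in all 5 libraries. Summed over 12 genes they were at 24984 to 29290 CPM in the DTx libraries, against 26198 to 26684 CPM in saline. Oligodendrocyte markers, summed over 10 genes, were higher still in every library. They were at 42977 to 90697 CPM in the DTx-labelled and 60227 to 92808 CPM in the saline libraries. In such bulk libraries, fewer cells of a type and less RNA per cell cannot be told apart.

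No gene of the 10 passed the test between the groups. Of these genes 8 had enough counts for the quasi-likelihood test of edgeR, whose adjusted p-values ran from 0.742 to 0.971. Across all 15532 genes tested 5 passed an adjusted p of 0.05, or 0.0322%, and all 5 were Xist and the Y-linked genes above. Of the 8 members tested 3 had a positive and 5 a negative log2 fold change of DTx over saline, with a median of -0.12 beside 0.0024 over all genes tested. At an unadjusted p under 0.05 stood 2 members, Osmr and Stat3, beside 6.68% of all genes. In both of them every DTx-labelled library lay above both saline libraries, which was so for 12.1% of all genes. In 1 member, Il6st, every DTx-labelled library lay below both saline libraries, which was so for 8.99% of all genes.

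**Figure D1:**
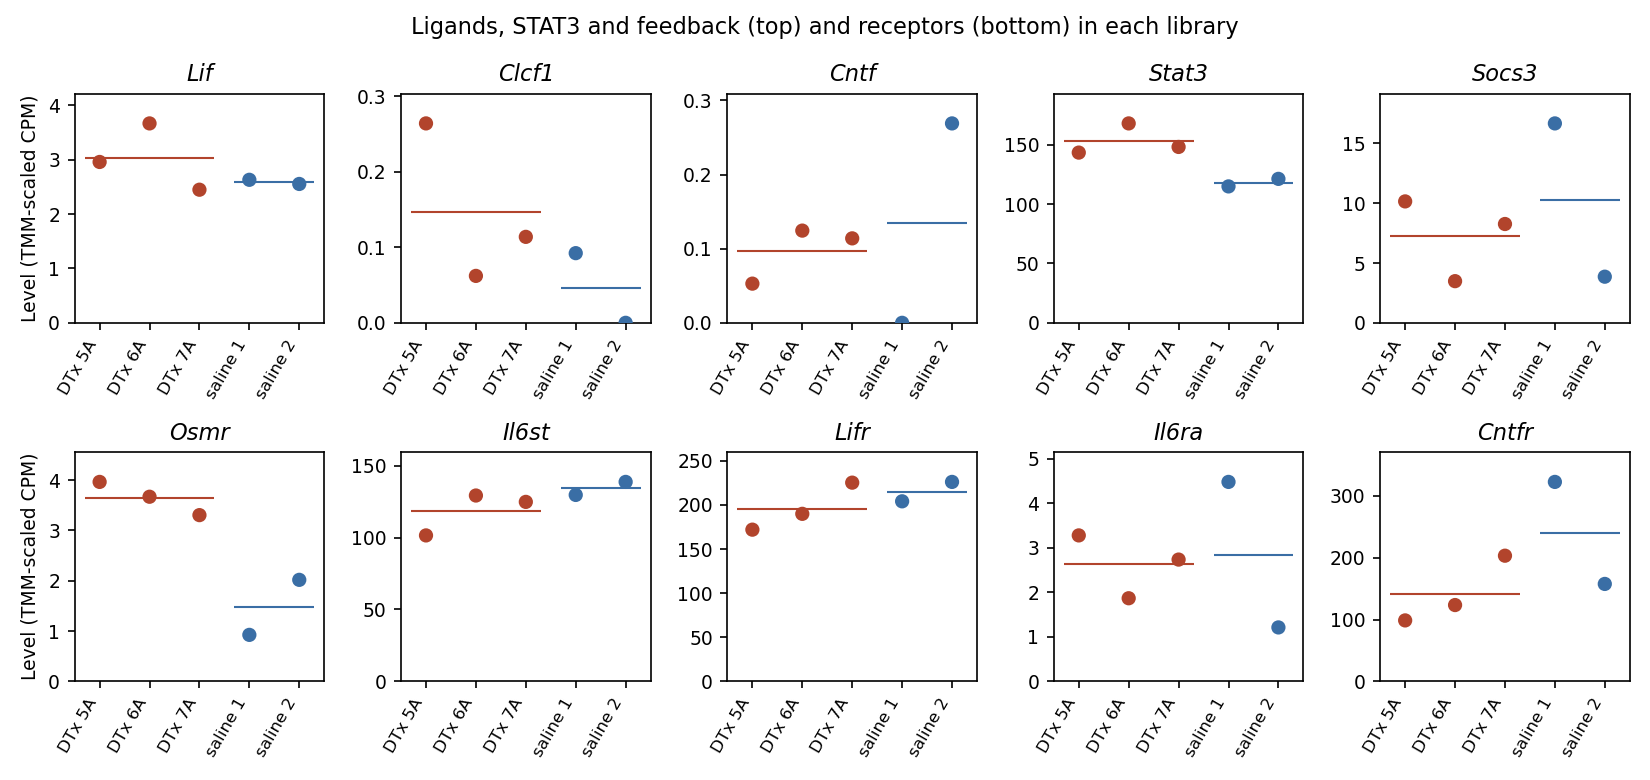
Level of each of the 10 genes in TMM-scaled CPM (vertical axes from 0, a scale per gene) in DTx-labelled 5A, 6A and 7A and in saline replicates 1 and 2; points are libraries and lines are group means. Osmr and Stat3 are higher in all 3 DTx-labelled libraries than in both saline libraries, while Socs3 and Il6ra are highest in saline replicate 1.

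Per kb of exon, the 3 cytokine genes were among the 5 least abundant of the family, together with Osmr and Il6ra. Lif, the leukaemia inhibitory factor (chromosome 11, 4257557 to 4272514 on GRCm38), was at 2.96, 3.67 and 2.45 CPM in DTx-labelled 5A, 6A and 7A and at 2.63 and 2.56 CPM in saline replicates 1 and 2. The groups overlapped, since library 7A lay below both saline libraries. The log2 fold change was 0.22 ± 0.302 (SE), with a 95% interval of -0.50 to 0.94 and an edgeR adjusted p of 0.889.

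Clcf1, the cardiotrophin-like cytokine (chromosome 19, 4214238 to 4223490), was close to undetected. It had 5, 1 and 2 counts in DTx-labelled 5A, 6A and 7A and 2 and 0 counts in saline replicates 1 and 2. The ratio of summed counts, DTx over saline and scaled for library size, was 3.35 with a 95% exact interval of 0.668 to 32.3, which covers counting error only and includes no difference. Its exons share 311 bases with a neighbouring gene on the same strand.

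Cntf, the ciliary neurotrophic factor that astrocytes are known to make after injury (chromosome 19, 12763660 to 12765632), had 1, 2 and 2 counts in DTx-labelled 5A, 6A and 7A and 0 and 6 counts in saline replicates 1 and 2. The 2 saline libraries were the lowest and the highest of the 5. The ratio of summed counts was 0.697, with an exact interval of 0.168 to 2.74. Of the exonic bases of Cntf 78.9% are also annotated to Zfp91 on the same strand, and Zfp91 had 6692 counts in the DTx-labelled libraries and 5470 in saline. The counting rule for reads in shared bases is not given in the sources used here. The level of Cntf is uncertain.

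Among the receptors, Osmr had the largest fold change, and the other 4 had log2 fold changes below 0. Osmr, the oncostatin M receptor (chromosome 15, 6813577 to 6874969), had 75, 59 and 58 counts in DTx-labelled 5A, 6A and 7A and 20 and 45 counts in saline replicates 1 and 2. These counts are 3.96, 3.67 and 3.30 CPM in the DTx libraries, against 0.923 and 2.02 CPM in saline. The 3 DTx-labelled libraries lay close together, and the saline libraries differed from each other by more than the DTx-labelled ones did. DTx over saline, the log2 fold change was 1.30 ± 0.385 (SE), or 2.47-fold with a 95% interval of 1.30 to 4.66. The edgeR p was 0.0125 before adjustment and 0.742 after adjustment over all genes, so the difference did not pass. Leaving out saline replicate 1 gave a log2 fold change of 0.85, and leaving out saline replicate 2 gave 1.97.

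Il6st, the gene of gp130 (chromosome 13, 112464070 to 112510086), was at 101.5, 129.2 and 124.8 CPM in DTx-labelled 5A, 6A and 7A and at 129.6 and 138.7 CPM in saline replicates 1 and 2. The groups did not overlap, but library 6A and saline replicate 1 nearly touched. Its log2 fold change was -0.18 ± 0.159 (SE), with an interval of -0.56 to 0.20 and an edgeR adjusted p of 0.818.

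Lifr, the signalling chain for LIF (chromosome 15, 7090614 to 7197489), was at 171.9, 189.9 and 225.2 CPM in DTx-labelled 5A, 6A and 7A and at 204.1 and 226.1 CPM in saline replicates 1 and 2. Library 7A lay between the saline libraries. The log2 fold change was -0.14 ± 0.169 (SE), and its 95% interval of -0.54 to 0.27 leaves room for a difference in either direction (edgeR adjusted p = 0.873).

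Cntfr, the lipid-anchored chain that gives CNTF and CLCF1 their specificity (chromosome 4, 41657498 to 41697089), was at 98.6, 123.5 and 203.3 CPM in DTx-labelled 5A, 6A and 7A and at 322.7 and 157.6 CPM in saline replicates 1 and 2. Saline replicate 1 was the highest of the 5 libraries, and library 7A lay above saline replicate 2. The fitted log2 fold change was -0.76 ± 0.401 (SE), with an interval of -1.73 to 0.21 and an edgeR adjusted p of 0.772. Without saline replicate 1 it was -0.16.

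Il6ra, the ligand-binding chain for IL-6 (chromosome 3, 89864059 to 89913196), was at 3.28, 1.87 and 2.73 CPM in DTx-labelled 5A, 6A and 7A and at 4.48 and 1.21 CPM in saline replicates 1 and 2. The 2 saline libraries held the highest and the lowest value, so the spread within saline was wider than the difference between the group means. Its log2 fold change was -0.10 ± 0.557 (SE, edgeR adjusted p = 0.971), and it was 1.12 without saline replicate 1.

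**Figure D2:**
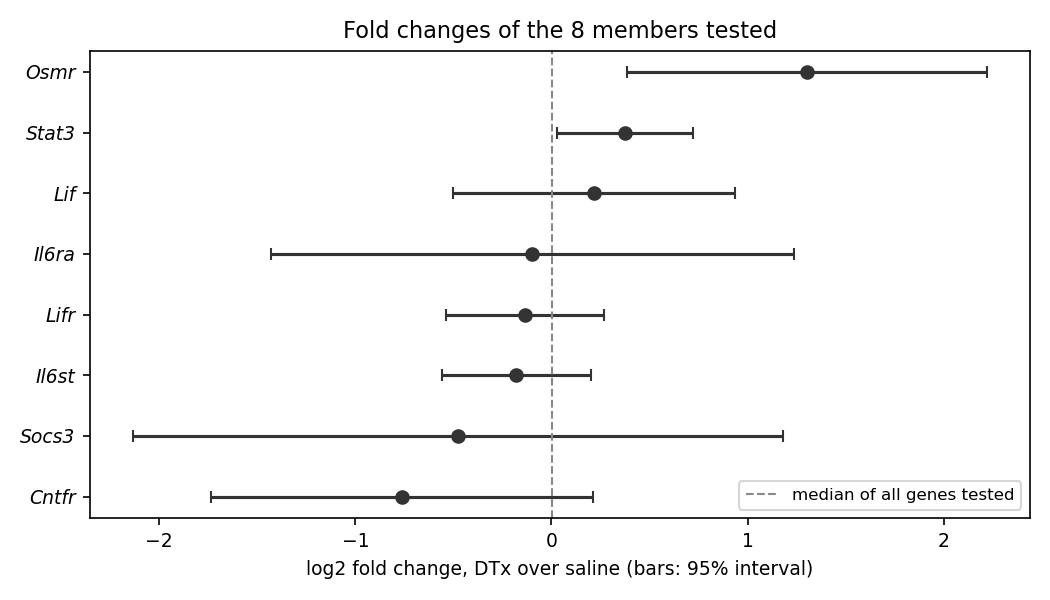
Log2 fold change of DTx over saline for the 8 genes tested (horizontal axis, points) with 95% intervals (bars), and the median of all genes tested (dashed line). The intervals of Osmr, at 0.38 to 2.22, and Stat3, at 0.029 to 0.72, lie above 0 before adjustment over all genes, and the other 6 include 0.

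Stat3, the transcription factor that these receptors activate (chromosome 11, 100885098 to 100939540), was at 143.4, 168.0 and 148.2 CPM in DTx-labelled 5A, 6A and 7A and at 114.9 and 121.3 CPM in saline replicates 1 and 2. Every DTx-labelled library lay above both saline libraries. This gave a log2 fold change of 0.38 ± 0.145 (SE), or 1.30-fold with a 95% interval of 1.02 to 1.65. The edgeR p was 0.0375 before and 0.745 after adjustment over all genes. Leaving out any 1 library gave log2 fold changes of 0.30 to 0.42. The edgeR p before adjustment was 0.056 without DTx library 5A, 0.16 without 6A and 0.048 without 7A. The deposited values are transcript counts and hold no measure of STAT3 phosphorylation.

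Socs3, the feedback inhibitor that STAT3 induces (chromosome 11, 117966079 to 117970047), did not show the separation of the groups seen for Stat3. It was at 10.1, 3.48 and 8.26 CPM in DTx-labelled 5A, 6A and 7A and at 16.7 and 3.86 CPM in saline replicates 1 and 2. Saline replicate 1 was highest, while library 6A and saline replicate 2 were low together. The log2 fold change was -0.48 ± 0.675 (SE), with an interval of -2.13 to 1.18 and an edgeR adjusted p of 0.892. Without saline replicate 1 it was 0.93, in the opposite direction.

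Markers of other cells also varied among these libraries, and their part in the values above was not tested. Summed over 10 ependymal and choroid plexus markers, the level was 158.7, 44.5 and 34.98 CPM in DTx-labelled 5A, 6A and 7A and 239.0 and 30.3 CPM in saline replicates 1 and 2. Saline replicate 1 and library 5A, the highest on this list, were also the highest for Socs3 and Il6ra. Cntfr was highest in saline replicate 1 too, at 322.7 CPM, but lowest in library 5A, at 98.6 CPM. Over 15 microglia markers the sum was 492.6, 360.5 and 301.3 CPM in DTx-labelled 5A, 6A and 7A and 139.2 and 309.2 CPM in saline replicates 1 and 2, and 5 of the 15 were higher in every DTx-labelled library than in saline, as were 12.1% of all genes. On this list and for Osmr library 5A was highest and saline replicate 1 lowest, but saline replicate 2 lay above library 7A on the list and below it for Osmr. Over 12 monocyte and macrophage markers the sum was 130.03, 17.6 and 52.1 CPM in DTx-labelled 5A, 6A and 7A and 18.0 and 24.9 CPM in saline replicates 1 and 2. The 6 tested, Mrc1, Pf4, Cd163, Lyve1, F13a1 and Ms4a7, all had positive log2 fold changes, as did 50.4% of all genes. Their median was 1.82, the groups overlapped for each, and none passed the test. Ly6c2, S100a8 and S100a9, genes of circulating monocytes and neutrophils, were at or near 0 throughout. They had 0 counts in the DTx-labelled libraries and 2, 1 and 2 counts in saline, all in replicate 2. Not tested either were Ccr2, Plac8 and Chil3. These had 62, 6 and 1 counts in the DTx-labelled libraries and 0, 2 and 2 in saline. Over 12 neuron markers the sums did not overlap, at 415.5 to 554.3 CPM in the DTx libraries, against 354.5 to 391.6 CPM in saline. Of these markers 10 had positive and 2 negative log2 fold changes. In 5 of them every DTx-labelled library lay above both saline libraries, as in 12.1% of all genes, and in 7 the groups overlapped.

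Divided by exonic length from GENCODE M21, Cntfr had the highest level of the family, with a median over the 5 libraries of 56.7 CPM per kb and a range of 35.4 to 116.0. Lifr, Stat3 and Il6st followed with medians of 18.9, 15.1 and 11.6 CPM per kb. The ranges of Lifr, at 15.96 to 20.98 CPM per kb, and Stat3, at 12.1 to 17.6 CPM per kb, overlapped, as did those of Stat3 and Il6st, at 9.14 to 12.5 CPM per kb. Socs3 had a median of 2.86 CPM per kb, above Lif at 0.605, Il6ra at 0.316 and Osmr at 0.273 CPM per kb. Cntf and Clcf1 were lowest, at 0.106 and 0.0243 CPM per kb. These libraries thus held abundant transcript for the LIF and CNTF receptor chains and little for the chains specific to oncostatin M and IL-6. The lengths are approximate, because the annotation that the authors counted on is not given in the sources used here.

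OSMR and LIFR both pair with gp130. The balance of their transcripts, not of the proteins, was described by the ratio of Osmr to Lifr counts within each library. Scaling between libraries has no effect on this ratio. Osmr counts were 2.31, 1.93 and 1.47% of Lifr counts in DTx-labelled 5A, 6A and 7A and 0.452 and 0.892% in saline replicates 1 and 2. The mean was 1.90 ± 0.42% in the DTx-labelled libraries and 0.672 ± 0.311% in saline (SD, n = 3 and n = 2). The groups did not overlap, as was already so for Osmr alone. Relative to Il6st, Osmr counts were 3.91, 2.84 and 2.65% in the DTx-labelled libraries and 0.712 and 1.45% in saline.

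For Socs3 relative to Stat3 the groups overlapped. Socs3 counts were 7.08, 2.07 and 5.57% of Stat3 counts in DTx-labelled 5A, 6A and 7A and 14.5 and 3.18% in saline replicates 1 and 2. The mean was 4.91 ± 2.57% in the DTx-labelled libraries and 8.84 ± 8.01% in saline, so the saline spread was close to its mean. These ratios were chosen with the values of the genes known and carry no test.

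**Figure D3:**
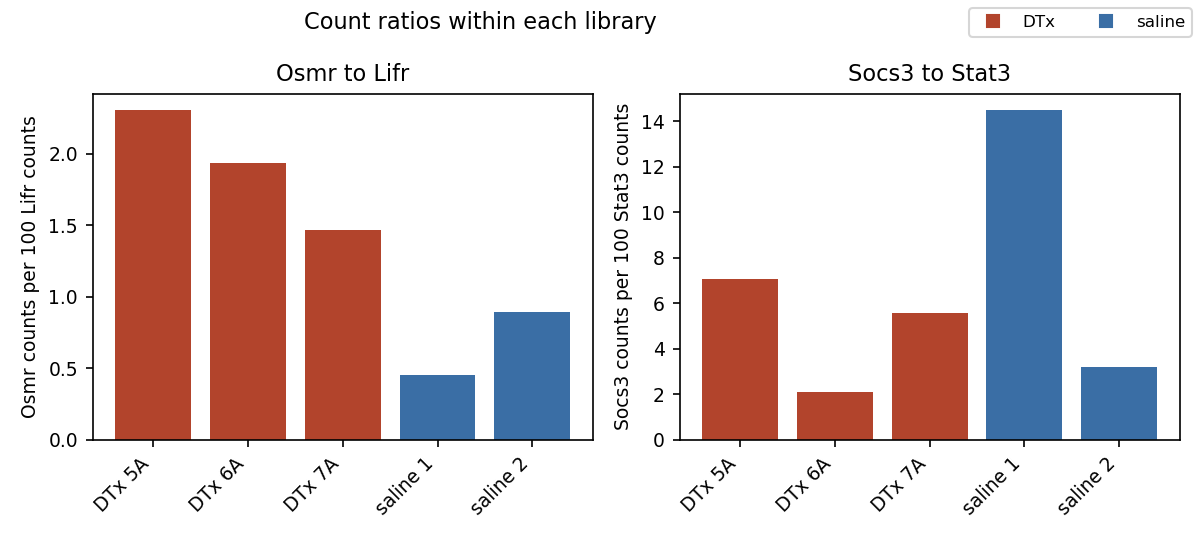
Counts of Osmr per 100 counts of Lifr (left) and of Socs3 per 100 counts of Stat3 (right) in each library, as bars from 0 for DTx-labelled 5A, 6A and 7A and for saline replicates 1 and 2. The Osmr ratio is 1.47 to 2.31 in the DTx-labelled and 0.452 to 0.892 in the saline libraries, while the Socs3 ratio is highest in saline replicate 1.

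A further 56 genes of the pathway were examined by role, and none passed the test over all genes. Of these, 48 were tested, 31 with a positive and 17 with a negative log2 fold change, and the median was 0.20. Over all genes tested 50.4% were positive, and the median was 0.0024. Groups did not overlap for 16 of the 48 with DTx higher and for 3 with DTx lower, beside the 12.1% and 8.99% of all genes. At an unadjusted p under 0.05 stood 10 with DTx higher and 1 with DTx lower, beside 4.49% and 2.19% of all genes. The list was chosen with earlier results of these data known, so these shares are a description and no independent test.

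Of the other ligands, Osm, the cytokine that binds OSMR and is known as a product of myeloid cells, was at 0.846, 0.124 and 1.08 CPM in DTx-labelled 5A, 6A and 7A and at 0.0923 and 0.0448 CPM in saline replicates 1 and 2. That is 37 counts in the DTx-labelled libraries and 3 in saline, a ratio of 10.3 with an exact interval of 3.27 to 52.3 for counting error, and an edgeR adjusted p of 0.742. Library 6A and saline replicate 1 both had 2 Osm counts, so the order of these libraries rests on scaling alone. In CPM, Osm and Osmr were both higher in every DTx-labelled library, as were 12.1% of all genes. Library 6A was low for Osm and not for Osmr. Ctf1, cardiotrophin 1, was at 6.45, 5.54 and 5.64 CPM in DTx-labelled 5A, 6A and 7A and at 4.34 and 4.12 CPM in saline (edgeR adjusted p = 0.764). Il11, interleukin 11, ran the other way, at 0.370, 0.373 and 0.684 CPM in the DTx libraries, against 0.923 and 0.852 CPM in saline (edgeR adjusted p = 0.772). Il6 had 4 counts, all in library 5A, and 0 counts in saline. Il27 had 0 counts in all 5 libraries.

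Of the other receptors Il11ra1, the interleukin 11 receptor, was at 77.0, 81.2 and 79.98 CPM in DTx-labelled 5A, 6A and 7A and at 76.7 and 72.8 CPM in saline replicates 1 and 2 (edgeR adjusted p = 0.895). Csf3r, the G-CSF receptor, was at 2.59, 1.31 and 0.854 CPM in the DTx libraries, against 0.462 and 1.30 CPM in saline. Lepr, the leptin receptor, was at 0.951, 0 and 1.65 CPM in the DTx libraries, against 0.323 and 0.493 CPM in saline. The groups overlapped for both Csf3r and Lepr, whose edgeR adjusted p-values were 0.802 and 0.824.

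Kinases and adaptors beneath the receptors had 1 positive and 6 negative log2 fold changes among 7 tested. Gab1, a docking protein that links gp130 to the MAP kinase branch, was at 96.9, 97.2 and 147.0 CPM in DTx-labelled 5A, 6A and 7A and at 184.2 and 152.7 CPM in saline replicates 1 and 2. Every DTx-labelled library lay below both saline libraries, with a log2 fold change of -0.57 ± 0.225 (SE) and an edgeR adjusted p of 0.745. Jak2 and Tyk2, kinases that bind the receptors, had log2 fold changes of -0.30 and -0.27 with overlapping groups (edgeR adjusted p = 0.784 and 0.851).

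Among the other STAT genes Stat2, a factor of type I interferon signalling, was at 17.8, 22.5 and 19.6 CPM in DTx-labelled 5A, 6A and 7A and at 16.7 and 11.97 CPM in saline replicates 1 and 2 (edgeR adjusted p = 0.764). Stat6, which acts downstream of interleukin 4, had a log2 fold change of 0.41 with overlapping groups (edgeR adjusted p = 0.835). Stat2 and Stat3 were both highest in library 6A, which was the lowest library for Socs3.

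Of the negative regulators other than Socs3, 11 were tested, with 8 positive and 3 negative log2 fold changes. Pias1, a SUMO ligase that restrains STAT factors, was at 117.6, 122.6 and 115.8 CPM in DTx-labelled 5A, 6A and 7A and at 89.2 and 108.2 CPM in saline replicates 1 and 2 (edgeR adjusted p = 0.772). Ptpn1, a tyrosine phosphatase that acts on Janus kinases, was at 39.3, 33.6 and 34.2 CPM in the DTx libraries, against 26.2 and 32.6 CPM in saline (edgeR adjusted p = 0.778). Ptpn6, the phosphatase SHP-1 of blood and microglial cells, was at 6.08, 2.67 and 2.79 CPM in the DTx libraries, against 0.970 and 2.74 CPM in saline, with overlapping groups and an edgeR adjusted p of 0.772.

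Of 17 STAT3 target genes tested, 9 had groups without overlap, all with DTx higher, beside 12.1% of all genes. The median log2 fold change of the 17 was 0.68. This list was chosen with earlier results of these data known, so its share beside that of all genes is no independent test. Serpina3n, a secreted serpin, stood at 52.5, 58.0 and 39.2 CPM in DTx-labelled 5A, 6A and 7A. It was at 21.8 and 22.9 CPM in saline replicates 1 and 2. Its log2 fold change was 1.16 ± 0.200 (SE, edgeR adjusted p = 0.734), and it was called by DESeq2, which called 0.729% of all genes, and by the edgeR likelihood ratio test, which called 0.644%. The same tools called 0 of the 10 members. Icam1, an adhesion molecule that NF-kB also induces, was at 3.81, 2.36 and 2.28 CPM in the DTx libraries, against 0.185 and 0.852 CPM in saline (log2 fold change 2.43 ± 0.582 SE, edgeR adjusted p = 0.734). Cebpd, a transcription factor of the acute-phase response, was at 11.9, 11.8 and 10.8 CPM in the DTx libraries, against 4.43 and 7.80 CPM in saline (log2 fold change 0.91 ± 0.273 SE, edgeR adjusted p = 0.742). The targets were not of one direction, with 12 positive and 5 negative log2 fold changes. Junb, an early-response gene, was at 48.0, 21.6 and 56.8 CPM in DTx-labelled 5A, 6A and 7A and at 107.9 and 24.3 CPM in saline replicates 1 and 2. Its groups overlapped, with a log2 fold change of -0.65 ± 0.675 (SE) and an edgeR adjusted p of 0.847. Junb was chosen after its values were seen, and like Socs3 it was highest in saline replicate 1 and lowest in library 6A.

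**Figure D4:**
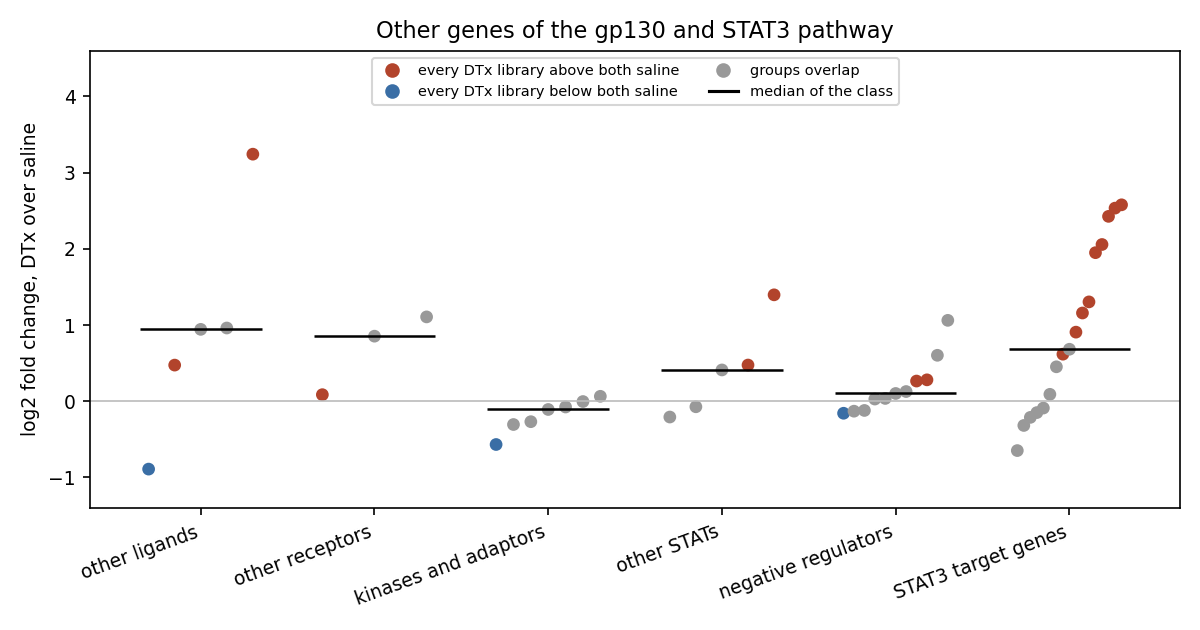
Log2 fold change of DTx over saline (vertical axis) for the 48 other pathway genes tested, by role; points are genes, coloured by whether the groups overlap, and bars are class medians. Osm, whose fitted value of 3.24 rests on 3 saline counts, is the highest point. Of 17 STAT3 target genes 9 have every DTx-labelled library above both saline libraries, as do 12.1% of all genes. The lists were chosen with earlier results of these data known.

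Likeness of pattern was measured as the root mean square difference of log2 CPM, centred on each gene's mean, over 5 libraries and among 49 other members and pathway genes of at least 1 CPM. The gene nearest to Osmr was Cebpd, at 0.117, followed by Bcl6 at 0.235 and Serpina3n at 0.275. All are on the STAT3 target list, and like Osmr they had positive log2 fold changes. The distance includes the difference between the groups, so it brings together listed genes with like fold changes and is no sign of shared regulation. Nearest to Stat3 were Pias1 at 0.0958, Ctf1 at 0.146 and Lif at 0.150. Il6st was nearest to Socs4 at 0.060 and then to Lifr at 0.0993 and Socs5 at 0.127. Lifr was nearest to Socs5 at 0.097 and then to Il6st at 0.0993 and Shc1 at 0.11. With 5 libraries these distances describe the values and carry no test.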

How the data were processed

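The deposited values are raw counts of reads, which the authors made for every library separately. Per the submitters' processing notes, reads went through fastp 0.23.2 and STAR 2.7.5c, and featureCounts 2.0.1, FastQC 0.11.9, MultiQC 1.11 and edgeR 3.42.4 are also listed, with builds GRCm38 and mm10. Settings, annotation and strand use are not stated in the sources. Per the labels, each library began with 5 ng of total RNA. Saline columns were matched to replicates 1 and 2 by the word Ctrl and their number. The numbers of the DTx columns match no label, so these were matched to the group alone. The table holds 1 other column of per-sample values, which no step used.

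Groups were compared with edgeR 4.0.16 in R 4.3.3. The fit used TMM scaling, filterByExpr (minimum count 10) and the quasi-likelihood F test with robust=TRUE and legacy=FALSE, with Benjamini-Hochberg adjustment over all genes tested and a threshold of 0.05. Levels are TMM-scaled CPM computed from the counts. For a group at 0 the floor was 3 counts summed over its libraries, and ratios of summed counts have exact 95% intervals. Both cover counting error only, and molecular identifiers are not mentioned. Alternatives used DESeq2 1.42.0, limma-voom of limma 3.58.1, other scalings and filters, and each library left out. The count test was also run on simulated data with known changes. Gene positions come from GENCODE M21 (GRCm38).

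Every 2 libraries differed beyond sampling noise, with a chi-square of 14.2 or more for each degree of freedom over genes with 20 or more counts in the pair. The sample titles number the samples of each group M1, M2 and so on without saying what the numbers mark, so p-values cover the spread between libraries alone, which may be technical. Members and gene lists were chosen with earlier results of these data known. All 10 members are named. Of each class of pathway genes the 3 with the smallest p were named, as were Ccr2, Xist and 4 Y-linked genes. From these classes 1 gene that the rule picks is not reported here. Further genes named for their values were chosen with those values in view.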

Additional observations from a re-analysis of the deposited data

How the results depend on the processing

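The count of members past the threshold was 0 with all 14 alternatives, and 0 of the 56 further pathway genes passed except that DESeq2 called 2 (Cd14 and Serpina3n) and the edgeR likelihood ratio test called 1 (Serpina3n), beside 0.729% and 0.644% of all genes called by these tools. At an unadjusted p under 0.05 stood 2 of the 8 members tested, beside 6.68% of all genes. The median log2 fold change of the members was 0.0079 with limma-voom, against -0.12 as reported, and ranged from -0.17 without DTx library 7A to 0.28 without saline replicate 1. Il6ra turned to 0.16 with limma-voom and 0.084 without DTx library 6A. With a library left out Il6ra ranged from -0.76 to 1.12 and Socs3 from -1.18 to 0.93, with both highest values without saline replicate 1. The cause was not tested. Lif, Osmr, Il6st, Lifr, Cntfr and Stat3 kept their direction in all 14, and the adjusted p of Osmr ran from 0.256 to nearly 1. The log2 ratio of Osmr to Lifr, DTx minus saline, was 1.56 and ranged from 1.07 to 2.05 with a library left out, and that of Socs3 to Stat3 was -0.65 and ranged from -1.74 to 0.45. With a saline library left out, the lone one is assumed to vary like the DTx libraries. The legacy form of the quasi-likelihood fit was added after seeing the data. No scaling moved the median of all genes by over 0.02 on the log2 scale. No paired analysis was possible because the DTx columns carry no replicate number of the labels. The 20 to 75 counts of Osmr per library, and the 0 to 6 of Clcf1 and Cntf, limit what can be seen of these genes.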
